A study of Mus musculus with 6 samples.

Results

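A set of 10 genes of collagen and of the myofibroblast programme was followed in E0771 cells, a mouse mammary carcinoma line. The genes were selected on their measured levels and differences in these libraries, so all 3 comparisons between groups count as used in the choice and their values are given as a description. They were taken by symbol from a table of 28063 counted genes and are Col1a1, Col1a2, Col3a1, Col4a1, Acta2, Tagln, Tgfbi, Olfml3, Sparc and Lox. All 10 had a row in the table, and 8 passed the filter on low counts. There were 3 groups with 2 libraries each. Vector cells carried a control vector, Malt1_WT cells expressed wild-type Malt1, and Malt1_PD cells expressed a Malt1 form that the labels name the PD mutant without spelling out the letters. All 3 groups were cultured with activated CD8 T cells at 3 effector cells per target for 12 hours, then washed, detached, seeded again and lysed 6 hours later, and no group without T cells is among the samples used here. The labels give 1 cell population for each form and do not say whether it was a clone or a pool, so the form and the population cannot be told apart. Nor do they say that a group's libraries were made from separate cultures, so errors and tests measure the spread between libraries, which may be technical.

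Collagens are triple helices of 3 chains. Types I and III build the fibrils of connective tissue, and type IV builds the sheet of basement membranes. Myofibroblasts are contractile, matrix-secreting cells that appear in wounds and tumour stroma, where they are recognised by smooth muscle actin (Acta2) and transgelin (Tagln) and are driven by TGF-beta and by serum response factor. Carcinoma cells that have taken on mesenchymal traits can transcribe some of the same genes. MALT1 is a scaffold and protease that signals to NF-kB.

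The libraries held 14045390 to 19962014 counts, and Malt1 itself stood at 23.8 and 31.3 CPM (counts scaled to library size with TMM factors) in Vector, at 67.2 and 82.1 in Malt1_WT and at 106 and 95.7 in Malt1_PD, in the direction of the labels. Replicates of Vector and of Malt1_WT differed from each other with gene length (Spearman rho of -0.67 and -0.53, against 0.05 in Malt1_PD, taken across 9573 genes, which are no replicates), so the length of a member is given with its values. Of the mesenchymal markers with a row, Vim lay between 3776 and 4645 CPM and Twist1 between 116 and 132 CPM. Zeb1 ranged from 59.3 to 84.0 CPM, Zeb2 from 122 to 157 and Prrx1 from 188 to 260. Fn1, the fibronectin gene, had only 1 to 3 counts in a library, and S100a4 had 26 to 42. The 7 mesenchymal markers with a row, most of whose counts were Vim, summed to 5204 and 4835 CPM in Vector, 4711 and 4531 in Malt1_WT, and 4303 and 4400 in Malt1_PD. All 4 Malt1 libraries lay below both Vector libraries in this sum, and its part in the members' values was not tested. Of 9 epithelial markers with a row, Krt8 held most counts (108 to 124 CPM) and Epcam had 110 to 134 counts in a library. Each of the others had at most 23, with Cdh1, the E-cadherin gene, at 2 to 8 counts. The 7 T cell markers with a row summed to 3 to 16 counts in a library.

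The label of a myofibroblast programme held for the data only in part. Acta2 was measured in every library, but Tagln had 0 to 5 counts. Of the listed smooth muscle and pericyte markers, Myh11 had 0 to 8 counts, Cnn1 7 to 18, Actg2 5 to 18 and Lmod1 0 or 1. The others were higher, with Rgs5 at 17 to 32 counts, Des at 48 to 85, Mcam at 56 to 89 and Cspg4 at 50 to 151. The 8 smooth muscle and pericyte markers summed to 14.6 and 16.0 CPM in Vector, 17.4 and 16.6 in Malt1_WT, and 16.0 and 15.0 in Malt1_PD. Of 8 fibroblast markers with a row, the receptors Pdgfra and Pdgfrb held most counts, and the sums were 222 and 276 CPM in Vector, 255 and 292 in Malt1_WT, and 259 and 250 in Malt1_PD. The sums of both marker lists overlapped between Vector and Malt1_PD, and that of the fibroblast list also between Vector and Malt1_WT. The smooth muscle sum was above both Vector values in both Malt1_WT libraries, and its part in the members' values was not tested. The 10 genes are therefore described by name and not as a cell type. In bulk samples, fewer cells of a type and less RNA per cell cannot be told apart.

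Promoter sequences from RefSeq (build GRCm38.p6) were used for 7 of the 10 genes, and those of Col1a1, Tagln and Lox were not used here. The motif search covered the 250 bases before the RefSeq start of each gene. RefSeq and GENCODE M21, the source of the gene coordinates given here, place some starts differently: 217 of the 250 bases of the Acta2 window and 63 of the Tgfbi window lie in exons of the GENCODE gene, as do 127 of Col1a2 and 238 of Sparc. Of the 4 genes that were higher in both Malt1 groups, Tgfbi and Olfml3 are shown 5′ to 3′ on the gene's strand, beside Col3a1, whose groups overlapped, each up to the GENCODE start. Acta2 is given by its matches alone, and the promoter of Col1a1 was not searched. Capitals mark matches to the motifs searched on both strands: the CArG box of serum response factor (by name, with at most 1 core letter other than A or T), the TATA box as TATAAA or as TATATA, the CAAT box as CCAAT, the GC box as GGGCGG and the NF-kB site (by name). A GC box on the opposite strand reads CCGCCC, and those of Olfml3 touch or overlap one another.
They are Tgfbi (chr13:56609336-56609522, plus strand, 187 bases), Olfml3 (chr3:103738002-103738251, minus strand) and Col3a1 (chr1:45311288-45311537, plus strand).
Tgfbi: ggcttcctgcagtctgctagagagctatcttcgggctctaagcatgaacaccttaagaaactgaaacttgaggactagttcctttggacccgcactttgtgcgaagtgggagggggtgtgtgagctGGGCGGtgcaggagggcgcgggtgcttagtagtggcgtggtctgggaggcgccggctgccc
Olfml3: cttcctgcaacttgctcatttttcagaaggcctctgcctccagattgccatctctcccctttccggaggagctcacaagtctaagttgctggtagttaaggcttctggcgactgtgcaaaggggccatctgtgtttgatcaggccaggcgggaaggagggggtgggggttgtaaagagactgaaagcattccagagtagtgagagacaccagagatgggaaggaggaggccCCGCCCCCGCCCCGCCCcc
Col3a1: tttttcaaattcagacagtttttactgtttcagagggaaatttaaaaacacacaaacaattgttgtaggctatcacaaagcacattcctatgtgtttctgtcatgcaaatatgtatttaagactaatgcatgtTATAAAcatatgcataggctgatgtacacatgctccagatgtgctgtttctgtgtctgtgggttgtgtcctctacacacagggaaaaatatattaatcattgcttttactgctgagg
The Acta2 window held 2 CArG-like matches, CCCTATATGG starting 84 bases and CCTTGTTTGG starting 34 bases before the RefSeq start, each with 1 core letter outside the exact box. Such a match was present in 8.59% of 32851 promoter windows of the same length, and an exact box in 1.47%. Among the members it was also found in Col1a2 (CCAAACTTGG, 228 bases before the start), a gene that was nearly silent here. Tgfbi held 1 GGGCGG match and Olfml3 held 3, against 32.7% of all windows with at least 1. Col3a1 held a TATAAA match 117 bases before its start (15.6% of windows with TATAAA or TATATA). The NF-kB site, present in 7.25% of windows, was not matched in these letters of the 7 windows. No searched motif was matched in all of Acta2, Tgfbi and Olfml3, and GC content was 53.6% in Acta2, 62.4% in Tgfbi, 57.6% in Olfml3 and 35.2% in Col3a1.

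The level per gene length (RPKM, the CPM divided by the deposited gene length in kilobases) put the members in 2 tiers. Sparc, which encodes a collagen-binding matricellular protein, was the highest, with a Vector mean of 171 ± 2.85 RPKM (SD, n = 2, as for all means here), above 99.2% of the genes counted. Col4a1, the basement membrane chain, followed at 75.8 ± 9.96 RPKM, then Col3a1 at 45.5 ± 0.187, Tgfbi at 35.4 ± 0.404, Acta2 at 18.9 ± 1.22, Olfml3 at 8.35 ± 0.687 and Col1a1 at 5.13 ± 0.575. Neighbours in this order did not overlap between libraries in Vector. The order changed at 1 place in the Malt1 groups: Tgfbi lay above Col3a1 in Malt1_WT (51.7 ± 1.56 against 45.9 ± 0.851 RPKM), and the same 2 genes overlapped in Malt1_PD (46.2 ± 0.595 against 45.8 ± 0.713). Tagln and Lox had at most 5 counts in a library, and Col1a2 had 3 to 16.

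**Figure D1:**
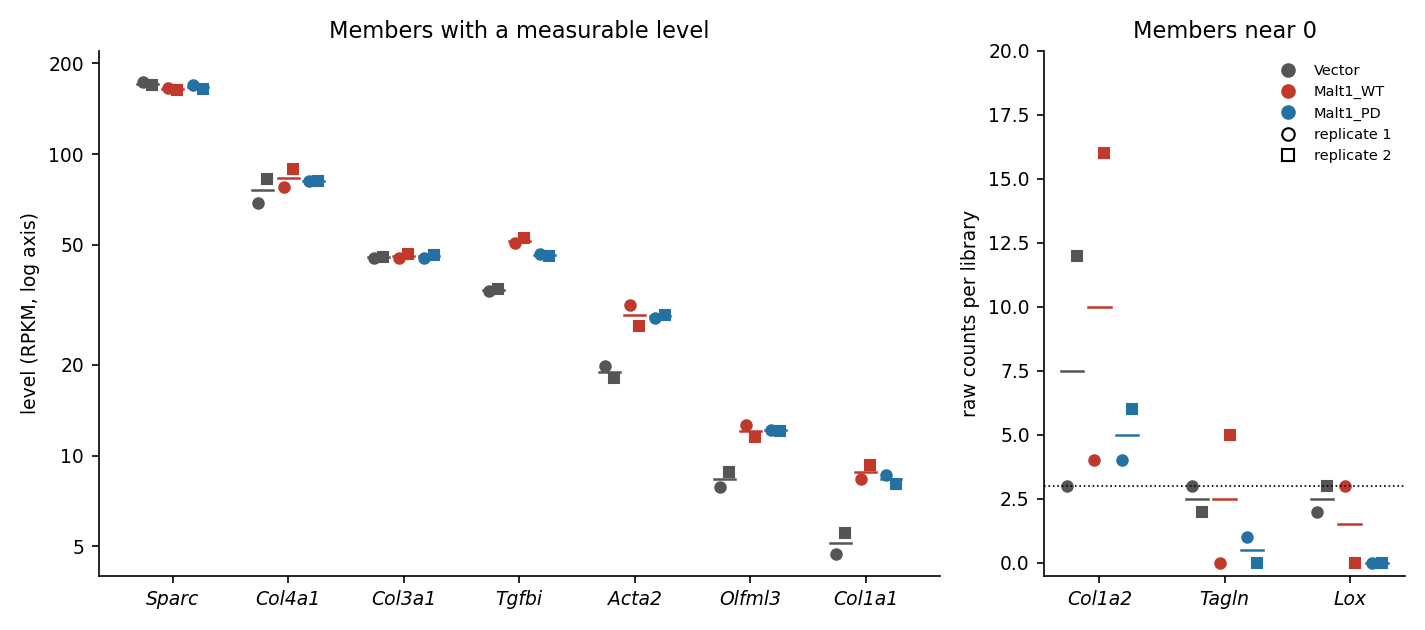
Levels of the 10 members in each of the 6 libraries, as RPKM on a log axis for 7 genes (left) and as raw counts for the 3 genes near 0 (right); colours are groups, circles and squares are replicates 1 and 2, short lines are means of 2 libraries and the dotted line is the floor of 3 counts. Sparc is highest at 162 to 173 RPKM, and Col1a1, Acta2, Tgfbi and Olfml3 lie higher in both Malt1 groups than in Vector.

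Fibrillar collagen chains had unequal RNA levels. Col1a1 (ENSMUSG00000001506.10, chromosome 11, 94936224 to 94953042, plus strand, GRCm38, 6563 nt), the alpha1 chain of type I collagen, stood at 31.0 and 36.4 CPM in Vector, 54.8 and 61.3 in Malt1_WT, and 56.8 and 53.0 in Malt1_PD. All 4 Malt1 libraries lay above both Vector libraries, and the Malt1 groups overlapped each other. The fitted log2 fold change was 0.79 ± 0.11 (SE) in Malt1_WT against Vector, a 1.73-fold difference, and 0.70 ± 0.11 in Malt1_PD against Vector, a 1.63-fold difference. Col1a1 was lower in replicate 1 than in replicate 2 of Vector and of Malt1_WT, by 0.23 and 0.16 log2 units, the side on which most genes of this length fell.

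Col1a2 (ENSMUSG00000029661.16, chromosome 6, 4504814 to 4541544, plus strand, 12426 nt), the alpha2 chain with which Col1a1 forms the usual type I heterotrimer, had 3 and 12 counts in Vector, 4 and 16 in Malt1_WT, and 4 and 6 in Malt1_PD. Against 1200, 2000 and 1790 counts of Col1a1 summed over the same groups, these came to 15, 20 and 10 counts, although the deposited gene length of Col1a2 is greater than that of Col1a1. It passed the low-count filter, and its fitted difference of 0.43 ± 0.74 in Malt1_WT and -0.45 ± 0.83 in Malt1_PD was smaller than its error. A similar gap was seen in type V collagen, whose Col5a1 chain stood at 72.7 RPKM in Vector while Col5a2 had 2 to 15 counts in a library. Col5a2 (chromosome 1, 45374321 to 45503282, minus strand) lies next to Col3a1 (chromosome 1, 45311538 to 45349706, plus strand), a gene with 14674 to 15903 counts summed over the 2 libraries of a group. Col5a2 was picked for mention after its values were seen.

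Col3a1 (ENSMUSG00000026043.18, 9816 nt), the chain of type III collagen, had the smallest fitted differences from Vector of the 8 members tested. Its values were 445 and 448 CPM in Vector, 445 and 456 in Malt1_WT, and 445 and 454 in Malt1_PD. The groups overlapped, and the fitted log2 fold changes were 0.01 ± 0.07 in both comparisons with Vector. Its replicates differed by -0.01 log2 units in Vector, although 91.8% of the genes tested are shorter.

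Col4a1 (ENSMUSG00000031502.11, chromosome 8, 11198423 to 11312826, minus strand, 7464 nt) stood at 513 and 619 CPM in Vector, 578 and 664 in Malt1_WT, and 607 and 608 in Malt1_PD. The spread of the Vector pair took in 3 of the 4 Malt1 libraries. The fitted log2 fold changes were 0.13 ± 0.11 in Malt1_WT and 0.10 ± 0.11 in Malt1_PD. Its partner Col4a2, which is read from the opposite strand and shares 22 exonic bases with it in the annotation, stood at 279 and 345 CPM in Vector, 303 and 348 in Malt1_WT, and 313 and 309 in Malt1_PD. The ratio of the 2 chains per length was 1.61 ± 0.026 in Vector, 1.69 ± 0.0012 in Malt1_WT and 1.73 ± 0.017 in Malt1_PD, and both chains were lower in replicate 1 than in replicate 2 of Vector and of Malt1_WT.

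The contractile members parted in the same way as the type I chains. Acta2 (ENSMUSG00000035783.8, chromosome 19, 34241090 to 34255590, minus strand, 1781 nt), which encodes smooth muscle alpha-actin, stood at 35.2 and 32.2 CPM in Vector, 56.2 and 48.0 in Malt1_WT, and 51.1 and 52.2 in Malt1_PD. Both Malt1 groups lay above Vector without overlap, at log2 fold changes of 0.62 ± 0.11 and 0.62 ± 0.11. Acta2 is short, and its replicate 1 was the higher one in Vector and Malt1_WT, opposite to Col1a1. Actin genes are close in coding sequence, so reads shared with other actins make its count less certain. GENCODE M21 holds another version of Acta2, with 2196 nt of exons, so its RPKM depends on the length used.

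Tagln (ENSMUSG00000032085.5, chromosome 9, 45929619 to 45936058, minus strand, 1988 nt), the actin-binding protein of smooth muscle also called SM22, had 3 and 2 counts in Vector, 0 and 5 in Malt1_WT, and 1 and 0 in Malt1_PD. These are near the floor of 3 counts, which equals 0.150 to 0.214 CPM and covers counting error only, and no fold change is given. In the annotation it shares 1241 exonic bases with the antisense gene Gm48529, which had at most 4 counts, and 108 with Pcsk7.

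Among the secreted matrix proteins, Tgfbi (ENSMUSG00000035493.10, chromosome 13, 56609523 to 56639562, plus strand, 3771 nt), a TGF-beta-induced adaptor between collagen and integrins, stood at 133 and 135 CPM in Vector, 191 and 199 in Malt1_WT, and 176 and 173 in Malt1_PD. The 3 groups did not overlap, with Malt1_WT highest. The log2 fold changes were 0.54 ± 0.08 in Malt1_WT and 0.38 ± 0.08 in Malt1_PD against Vector. At 3771 nt it is near the middle of the length range, and its replicates differed by at most 0.06 log2 units.

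Olfml3 (ENSMUSG00000027848.12, chromosome 3, 103722222 to 103738001, minus strand, 6161 nt), a secreted glycoprotein with an olfactomedin domain, stood at 48.5 and 54.5 CPM in Vector, 78.0 and 71.0 in Malt1_WT, and 74.8 and 74.5 in Malt1_PD. Again the 4 Malt1 libraries lay above both Vector libraries. The fitted log2 fold changes were 0.53 ± 0.10 and 0.54 ± 0.10.

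Sparc (ENSMUSG00000018593.13, chromosome 11, 55394500 to 55423183, minus strand, 3788 nt) stood at 655 and 640 CPM in Vector, 625 and 615 in Malt1_WT, and 641 and 620 in Malt1_PD. The Malt1_WT pair lay below the Vector pair by a small step, at a log2 fold change of -0.06 ± 0.07, and Malt1_PD overlapped Vector at -0.04 ± 0.07. Lox (ENSMUSG00000024529.13, chromosome 18, 52516067 to 52529867, minus strand, 4810 nt), the lysyl oxidase that crosslinks collagen, had 2 and 3 counts in Vector, 3 and 0 in Malt1_WT and 0 in both Malt1_PD libraries. For the last pair, 0 counts allow up to 0.190 and 0.178 CPM. All Lox values lie at or under the floor, so no fold change is given.

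**Figure D2:**
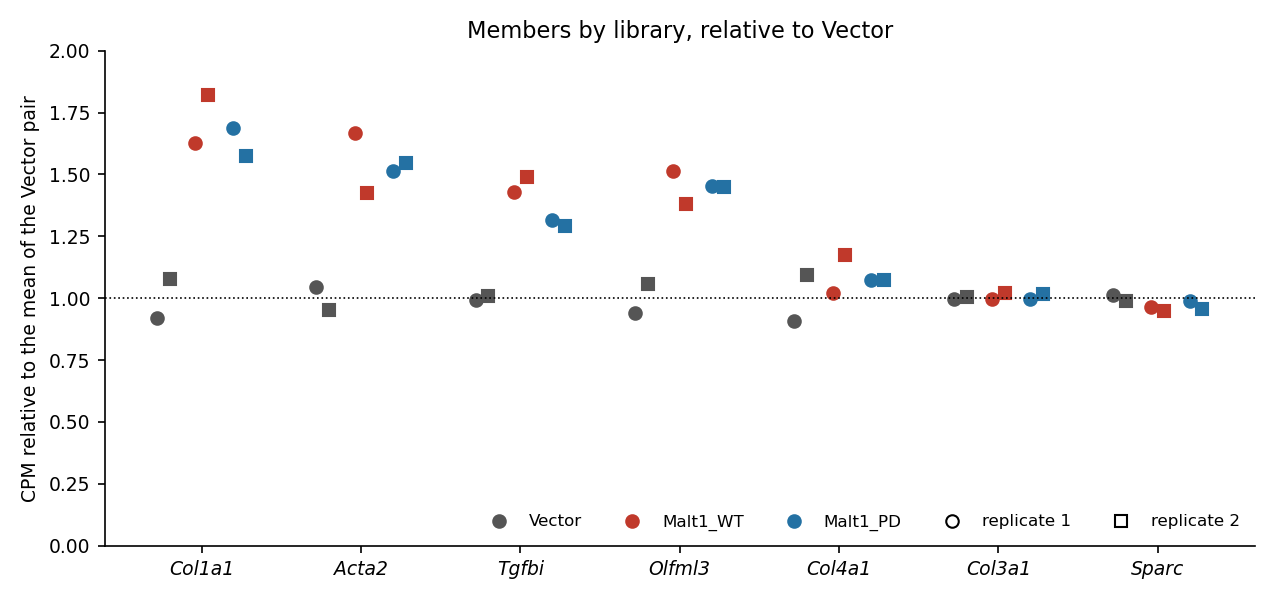
CPM of 7 members in each library divided by the mean of the Vector pair (vertical axis, starting at 0), with groups in colour and replicates 1 and 2 as circles and squares. Col1a1, Acta2, Tgfbi and Olfml3 lie above the Vector pair in all 4 Malt1 libraries, and Col4a1, Col3a1 and Sparc stay near 1.

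Counted over the members, 4 of the 8 tested (Col1a1, Acta2, Tgfbi and Olfml3) had both Malt1_WT libraries above both Vector libraries, where 15.5% of all 14675 genes tested did, and 1 (Sparc) had both below, where 17.1% did. In Malt1_PD against Vector the same 4 genes lay above without overlap (18.4% of all genes) and 0 below (19.7%). All 4 Malt1 libraries lay above both Vector libraries in these 4 members and in 9.74% of all genes. The members were chosen with these comparisons known and both comparisons share the Vector pair, so the counts are a description and nothing is read from them. With p-values adjusted by Benjamini-Hochberg over all genes, 0 of 8 members were called by edgeR's quasi-likelihood test in either comparison with Vector, with 0.00681% of all genes called in each (1 gene). At an unadjusted p under 0.05, the 4 named members were higher and 0 lower in each comparison, against 3.30% of all genes higher and 3.80% lower in Malt1_WT, and 3.73% and 4.88% in Malt1_PD. DESeq2 called all 4 in Malt1_WT (0.290% of genes called) and 3 of them, without Tgfbi, in Malt1_PD (0.332% of genes called). The median log2 fold change over the 8 was 0.48 in Malt1_WT and 0.24 in Malt1_PD, beside -0.0012 and -0.0011 over all genes tested.

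The members' calls changed when either Vector library was left out and when the length trend was removed, while their sizes moved less. In Malt1_WT against Vector, edgeR called 3 members higher without Vector replicate 1 (0.326% of all genes called) and 4 without Vector replicate 2 (3.91%). In Malt1_PD it called 2 (0.724%) and 4 (6.05%). Without both Vector replicate 1 and Malt1_WT replicate 1 it called 4 in each (6.15% and 13.7%), and with no filter on low counts 4 in each (0.403% and 0.670%). The fit with the replicate number as a block called 0 (0.0409% and 0.0613%). Without 1 of the Malt1 libraries 0 members were called, where the genes called were 0.00646% and 0.00652% (Malt1_WT replicates 1 and 2) and 0.00645% and 0.00644% (Malt1_PD replicates 1 and 2) in Malt1_WT against Vector. With the length trend removed (0.375% and 0.688% of genes called) it called Col1a1, Acta2, Tgfbi and Olfml3 in both comparisons, at 0.78, 0.64, 0.56 and 0.53 in Malt1_WT and 0.70, 0.64, 0.40 and 0.53 in Malt1_PD (log2 fold changes). Over 12 alternatives the log2 fold change of Col1a1 stayed between 0.68 and 0.91 in Malt1_WT and between 0.59 and 0.83 in Malt1_PD, and that of Acta2 between 0.51 and 0.74 and between 0.56 and 0.68. For Tgfbi the ranges were 0.52 to 0.58 and 0.37 to 0.40, and for Olfml3 0.38 to 0.62 and 0.46 to 0.63.

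**Figure D3:**
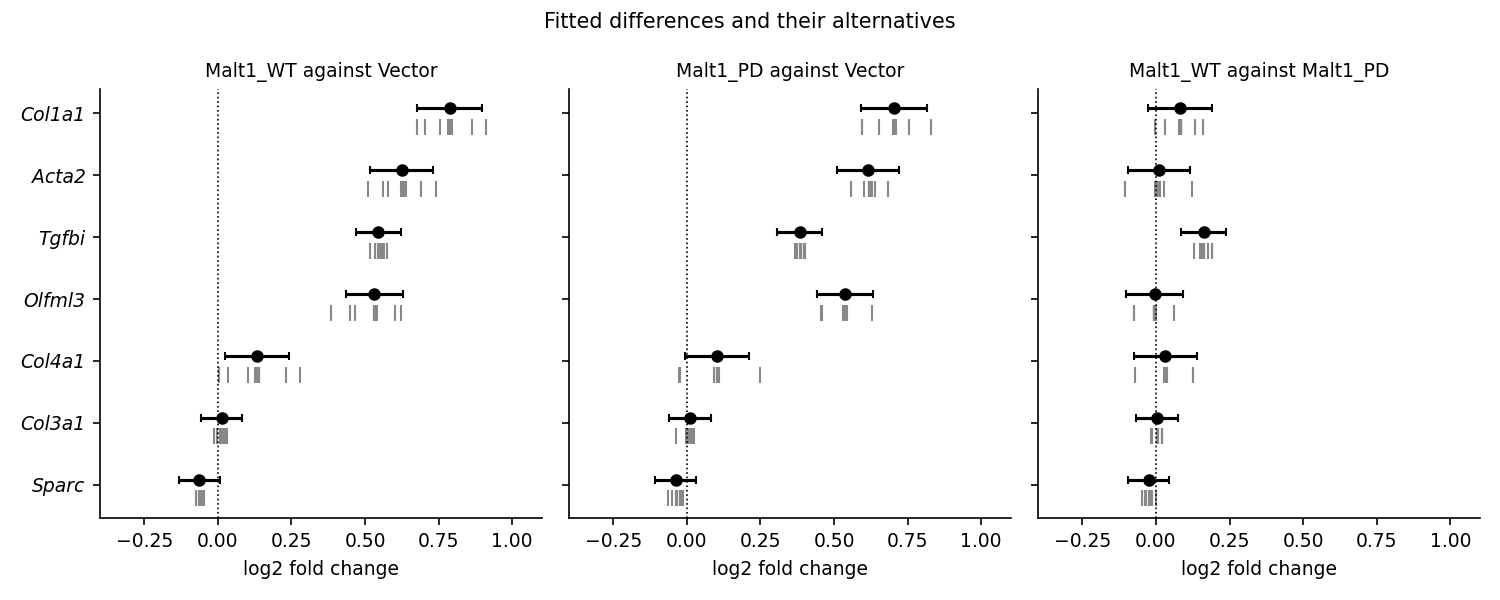
Log2 fold changes of 7 members in the 3 comparisons (horizontal axis): black points with bars are fitted values ± SE and grey ticks are the 12 alternatives. In the comparisons with Vector the ticks of Col1a1, Acta2, Tgfbi and Olfml3 stay right of 0, while between the Malt1 forms, of these 7 genes, only those of Tgfbi do. The members were chosen with these comparisons known, so the sides on which the ticks lie are a description.

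**Figure D4:**
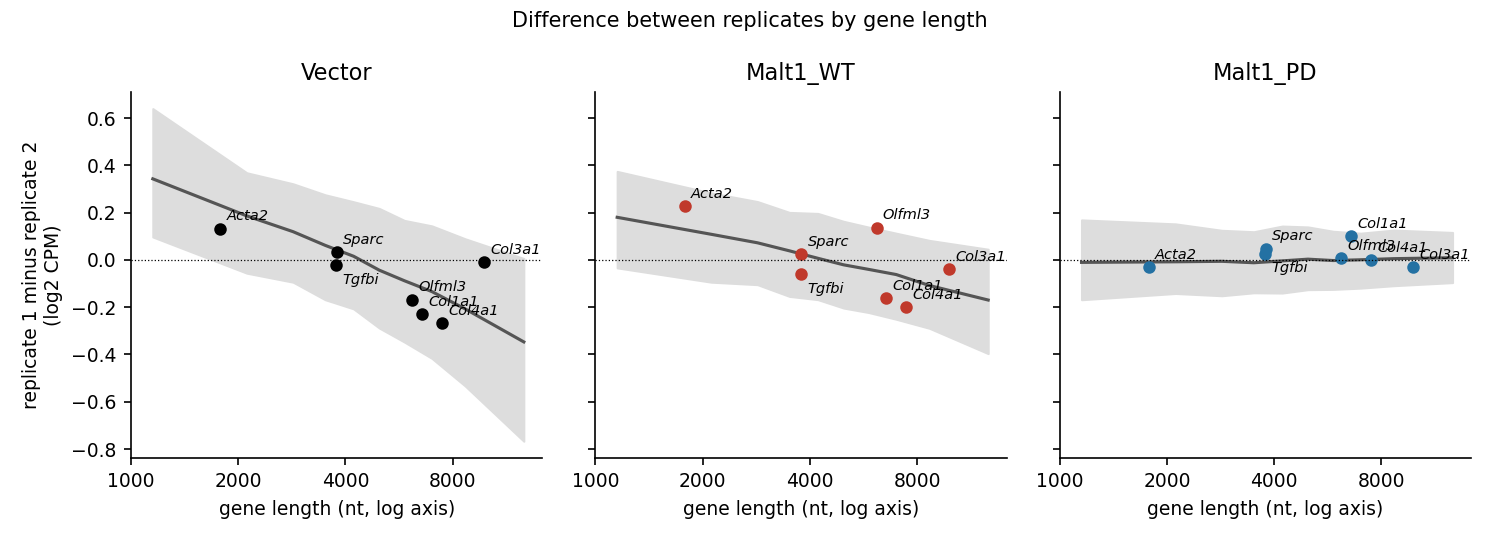
Replicate 1 minus replicate 2 in log2 CPM (vertical axis) against gene length in nt (log axis) in each group; the line is the median and the band the central 80% of genes in 10 length classes, and points are members. In Vector, Col1a1 (-0.23), Col4a1 (-0.27) and Acta2 (0.13) lie on the side of 0 that the median for their length takes, and Col3a1 lies at -0.01.

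Malt1_WT was compared with Malt1_PD to see whether the 2 forms differed in these genes. Malt1 itself was lower in both Malt1_WT libraries than in both Malt1_PD libraries, so the form and the Malt1 level cannot be told apart. Tgfbi was higher in both Malt1_WT libraries than in both Malt1_PD libraries, at a log2 fold change of 0.16 ± 0.08, and was the 1 member of 8 without overlap in that direction (16.1% of all genes). The other differences between the forms were 0.08 ± 0.11 for Col1a1, 0.01 ± 0.11 for Acta2, -0.0049 ± 0.10 for Olfml3, 0.03 ± 0.11 for Col4a1, 0.00 ± 0.07 for Col3a1 and -0.02 ± 0.07 for Sparc. EdgeR's quasi-likelihood test called 0 of 8 members (0.00681% of all genes). At an unadjusted p under 0.05, 0 were higher (0.838% of all genes) and 0 lower (1.08%), 0 lay below without overlap (16.0%), and DESeq2 called 0 (0.00681%). No member was called with no low-count filter (0.0428%), or without a single library (0.00644% to 0.00652%). Without Vector replicate 1 and Malt1_WT replicate 1, a fit that rests on the spread of the Malt1_PD pair, Tgfbi and Col4a1 were called higher in Malt1_WT, at log2 fold changes of 0.19 and 0.13 (2.35% of all genes called).

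The other genes of matrix biology were taken from 6 lists with 195 genes, of which 145 were tested. The lists were written with earlier results of these data known, so their counts are a description and nothing is read from them. By edgeR's quasi-likelihood test over all genes, 0 were called in each of the 3 comparisons. At an unadjusted p under 0.05, 13 were higher and 7 lower in Malt1_WT against Vector (8.97% and 4.83% of the 145, where 3.30% and 3.80% of all genes were), and 16 were higher and 11 lower in Malt1_PD against Vector (11.03% and 7.59%, where 3.73% and 4.88% of all genes were). DESeq2 called 1 in each comparison with Vector, Spp1 lower in Malt1_WT (0.290% of genes called) and Mmp2 higher in Malt1_PD (0.332% of genes called). Leaving out 1 Vector library leaves that group with 1 library, and the direction of edgeR's calls then changed with the library left out. Without Vector replicate 1 the list genes called in both Malt1 groups were mostly lower than in Vector. Without Vector replicate 2 they were mostly higher. The same held for all genes called.

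Of 38 other collagen chains, 21 were tested, with a median log2 fold change of 0.11 in Malt1_WT and 0.12 in Malt1_PD against Vector. The chains of type VI collagen, which forms beaded filaments around cells, were among the most abundant. Col6a1 stood at 624 and 718 CPM in Vector, 868 and 916 in Malt1_WT, and 861 and 830 in Malt1_PD (log2 fold changes 0.41 ± 0.09 and 0.33 ± 0.09). Col6a2 stood at 306 and 367 CPM in Vector, 425 and 506 in Malt1_WT, and 418 and 430 in Malt1_PD (0.47 ± 0.12 and 0.33 ± 0.12). For both genes all 4 Malt1 libraries lay above both Vector libraries, as for Col1a1 and for 9.74% of all genes tested. Col6a3, named here after its values were seen, ranged from 763 to 1289 CPM within Vector alone and overlapped Malt1_WT (1195 and 1598 CPM), while both Malt1_PD libraries (1417 and 1384 CPM) lay above both Vector libraries. Its log2 fold changes were 0.44 ± 0.22 and 0.45 ± 0.22. It is 11963 nt long, in the class where Vector replicate 1 was low. Col8a1, a chain of short-chain network collagen, stood at -0.24 ± 0.12 and -0.40 ± 0.12.

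The 27 tested genes of collagen synthesis, folding and crosslinking had medians of 0.04 and 0.02 in Malt1_WT and Malt1_PD against Vector. Pcolce, which enhances removal of the procollagen C-propeptide, stood at 542 and 494 CPM in Vector, 611 and 632 in Malt1_WT, and 626 and 629 in Malt1_PD (0.26 ± 0.08 and 0.28 ± 0.08). Of the relatives of Lox, Loxl2 and Loxl4 are named by the rule, with Loxl2 at 74.2 and 75.5 CPM in Vector, 92.7 and 97.6 in Malt1_WT and 80.8 and 84.1 in Malt1_PD (0.35 ± 0.08 and 0.14 ± 0.08), and Loxl4 at 0.33 ± 0.14 and 0.37 ± 0.14. Both encode lysyl oxidase-like enzymes. Of the other relatives, named after their values were seen, Loxl3 stood at -0.19 ± 0.15 and -0.18 ± 0.15, and Loxl1 had at most 8 counts and was not tested.

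The 31 tested matrix glycoproteins and proteoglycans had medians of 0.11 and 0.12, and the 3 genes of the list with the smallest p over the groups had negative differences. Spp1, which encodes osteopontin, stood at 3445 and 3120 CPM in Vector, 2413 and 2276 in Malt1_WT, and 2590 and 2558 in Malt1_PD (-0.49 ± 0.07 and -0.35 ± 0.07). Dcn, the small collagen-binding proteoglycan decorin, stood at 9.85 and 12.5 CPM in Vector, 6.05 and 6.13 in Malt1_WT, and 6.90 and 6.66 in Malt1_PD (-0.87 ± 0.17 and -0.72 ± 0.17). Ecm1, a secreted matrix glycoprotein, stood at -0.13 ± 0.08 and -0.36 ± 0.08. Spp1 and Dcn thus lay below Vector in all 4 Malt1 libraries, opposite to Col1a1. Of all genes tested, 10.8% did so. By edgeR's test at an unadjusted p under 0.05, 2 list genes were higher and 2 lower in Malt1_WT against Vector. For all genes these shares were 3.30% and 3.80%. In Malt1_PD against Vector 8 list genes were higher and 4 lower, where 3.73% and 4.88% of all genes were.

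The 25 tested contractile and actin-binding genes had medians of -0.07 and -0.12, below 0 while Acta2 was above it. The list's named members were the tropomyosins Tpm4 (636 and 590 CPM in Vector against 501 to 524 CPM in the Malt1 libraries, -0.26 ± 0.08 and -0.25 ± 0.08) and Tpm3 (-0.11 ± 0.07 and -0.12 ± 0.07), and the calponin Cnn3 (-0.17 ± 0.10 and -0.22 ± 0.10). The 24 tested genes of TGF-beta, SRF and mesenchymal regulation had medians of 0.08 and 0.07. Ctgf (Ccn2), a matricellular gene that TGF-beta and YAP induce, stood at 3.04 and 3.36 CPM in Vector, 6.76 and 4.79 in Malt1_WT, and 4.24 and 3.45 in Malt1_PD (0.84 ± 0.25 and 0.26 ± 0.26). Prrx1, a mesenchymal homeobox factor, stood at -0.30 ± 0.08 and -0.42 ± 0.08.

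The 17 tested collagen receptors and turnover genes had medians of 0.05 and -0.06. Ddr1, a receptor kinase for collagen, stood at 166 and 177 CPM in Vector, 211 and 227 in Malt1_WT, and 217 and 205 in Malt1_PD (0.36 ± 0.08 and 0.30 ± 0.08). Mmp2, a gelatinase, stood at 75.1 and 83.5 CPM in Vector, 105 and 109 in Malt1_WT, and 114 and 115 in Malt1_PD (0.44 ± 0.09 and 0.53 ± 0.09). The integrin gene Itgb3 stood at -0.15 ± 0.12 and -0.40 ± 0.12. The medians of all 6 lists lay within 0.12 of 0, where the medians of all genes tested were -0.0012 and -0.0011.

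**Figure D5:**
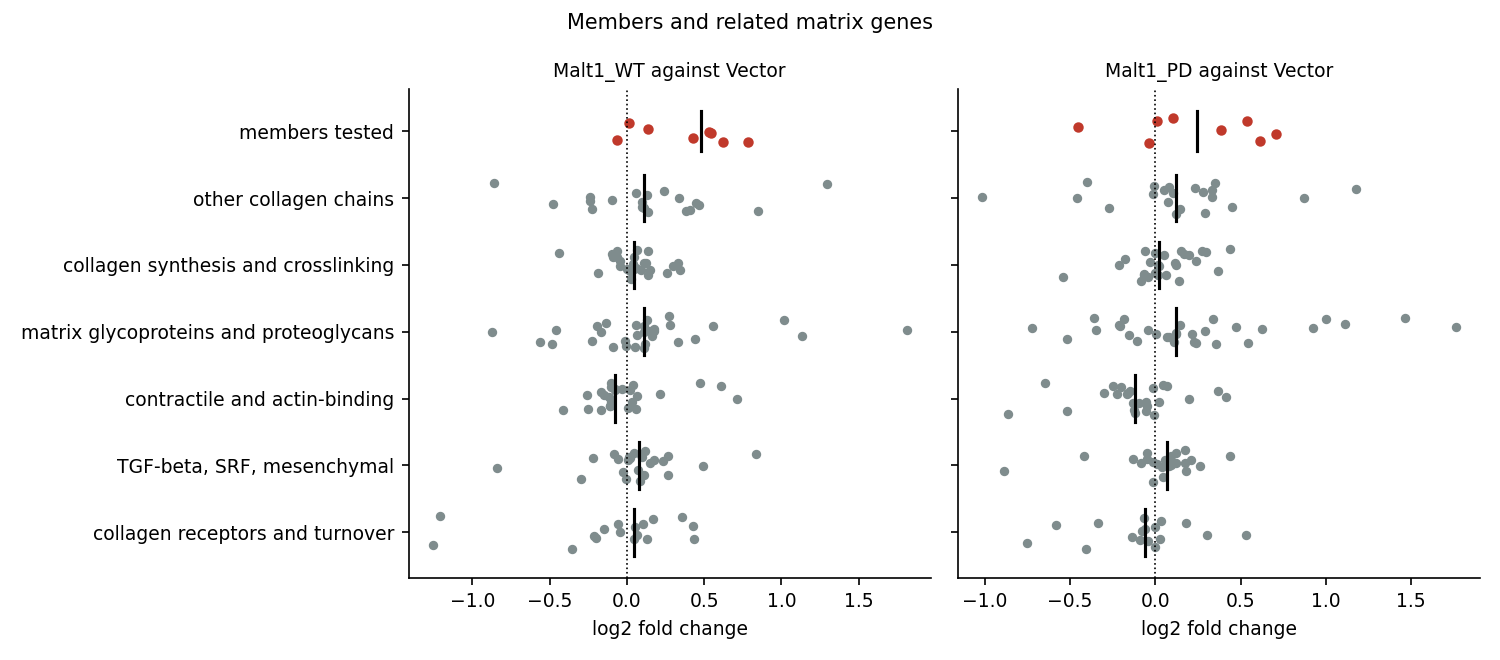
Log2 fold changes against Vector (horizontal axis) of the 8 members tested and of the 145 tested genes of 6 matrix lists, in Malt1_WT (left) and Malt1_PD (right); each point is a gene and black lines are medians. The list medians lie between -0.12 and 0.12, and 4 members lie at 0.38 or above in both panels.

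The genes most like Col1a1 were sought by the root mean square difference between centred log2 CPM profiles over the 6 libraries, among 9572 other genes. The 5 closest outside the members were Irs2 (0.068 log2 units), an insulin receptor substrate gene, Piwil2 (0.071), which encodes a PIWI protein, 2700081O15Rik (0.096), C3 (0.097), the complement component, and Tarbp1 (0.11). Irs2 stood at 5.74 and 6.22 CPM in Vector and at 9.18 to 10.97 CPM in the Malt1 libraries. Piwil2 stood at 57.6 and 63.8 CPM in Vector and at 89.8 to 101 CPM in the Malt1 libraries. Among the members, Olfml3 was the 13th closest gene (0.14), Tgfbi the 24th (0.15) and Acta2 the 37th (0.17). Col4a1 stood at place 1040 (0.30), Col3a1 at place 3557 (0.36) and Sparc at place 5318 (0.39). The members were chosen with their differences in these libraries known, so their places are a description and nothing is read from them. The measure describes these 6 libraries, which share a line and a treatment.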

How the data were processed

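RNA sequencing of 6 libraries was analysed. The authors deposited whole-number counts per gene, not normalised. Per the submitters' processing notes, reads were processed with featureCounts 1.6.3, STAR 2.7.3a and Trim Galore 0.6.0 on GRCm38.p6. Per the labels' protocols, libraries were directional with paired reads of 150 bases. Neither the annotation version nor the strand setting of the counting is stated, so overlapping and near-identical genes are less certain. Beside the counts, 6 deposited log2 RPKM columns were not used. Gene length is the other deposited column used, in nt.

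Of 28063 genes, 14675 passed filterByExpr with the groups given. The model was edgeR 4.0.16 under R 4.3.3 (glmQLFit and glmQLFTest with TMM factors, all 6 libraries in 1 fit, 3 residual degrees of freedom, no covariate), and genes with a Benjamini-Hochberg adjusted p under 0.05 over all genes tested were called. SE were derived from the quasi-likelihood F. The common dispersion gave a coefficient of variation of 10.1%. Log2 CPM used a prior count of 2, and RPKM used the deposited lengths. Coordinates come from GENCODE M21 (28056 identifiers matched without version). Acta2 and Lox are there in another version, with 2196 and 4778 nt of exons against deposited lengths of 1781 and 4810 nt. The fit was also run on simulated counts for Malt1_WT against Vector (14373 genes, 200 changed). It recovered 91% of the genes changed by 1 log2 unit and 100% of those changed by 2, and 7.28% of its calls were false. Both sizes are above every member's difference. Changes were placed only in genes above a minimum mean CPM, and counts were drawn without the length trend of the real libraries. The shares therefore do not give the power of the fit on the real data.

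The members, the matrix and marker lists and the tests were chosen with earlier results of these data known. Named genes were the members, called list genes, the 3 genes of each list with the smallest p over the 3 groups (mean log2 CPM of at least 1) and the 5 genes most like Col1a1 (mean log2 CPM of at least 3). Other genes are named as chosen after their values were seen. A gene that this rule names is not reported here. Alternatives were the Wald test of DESeq2 1.42.0, its size factors in edgeR, all genes without a filter, the replicate block, a length trend removed by loess, each library left out, and the libraries low on long genes left out together.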

Additional observations from a re-analysis of the deposited data

How the results depend on the processing

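The direction of Col1a1, Acta2, Tgfbi and Olfml3 against Vector held in all 12 alternatives, and their calls did not. These members were chosen with the comparisons known, and all 4 Malt1 libraries lay above both Vector libraries in each. Leaving out libraries could therefore hardly turn the direction, and nothing is read from its holding. Counts of called members, matrix list genes and all genes, in that order, were 0, 0 and 1 in Malt1_WT against Vector, 0, 0 and 1 in Malt1_PD against Vector and 0, 0 and 1 between the forms. With no low-count filter, which tests more genes, they were 4, 7 and 113, 4, 7 and 188 and 0, 0 and 12. With DESeq2 they were 4, 1 and 31, and 3, 1 and 43. With the length trend removed they were 4, 3 and 55, and 4, 3 and 101. With replicate 1 of Vector and of Malt1_WT both left out, which leaves the spread of the Malt1_PD pair, they were 4, 27 and 936, 4, 42 and 2080 and 2, 21 and 358. Other causes were not tested. Leaving out 1 library gave ranges of 0 to 4, 0 to 16 and 1 to 599 in Malt1_WT against Vector, 0 to 4, 0 to 22 and 0 to 928 in Malt1_PD against Vector, and 0 to 0, 0 to 0 and 1 to 1 between the forms. A group left with 1 library is assumed to vary like the others. DESeq2 size factors gave the same counts of called members.

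The replicate block changed no member's call, and called 6 genes in Malt1_WT and 9 in Malt1_PD against Vector. The labels do not say that a replicate number marks a shared culture. Differences between replicates 1 and 2 correlated across genes between Vector and Malt1_WT (r = 0.68), and not between Malt1_PD and either (-0.01 and 0.03), so the numbers were not taken as pairs. Small values changed sign under some alternatives: Col4a1 in Malt1_PD against Vector in 2 of 12, Col3a1 in 2 of 12 in each comparison, and Col1a2 in 2 of 12 in Malt1_WT against Vector and 1 of 12 in the others. Between the forms, Acta2 changed sign in 4 of 12, and Col1a1, Col4a1, Olfml3 and Sparc in 1 of 12 each. Depth limits Col1a2, Tagln and Lox, where differences were not detectable at these counts.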
